A study of Homo sapiens with 5 samples.

Results

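The 10 genes described here belong to the contractile and actin-binding apparatus, are known as targets of serum response factor (SRF), and were measured in SAS cells after knockdown of CCT2. They were chosen by symbol (ACTA2, TAGLN, TPM1, TPM2, MYL9, CALD1, VCL, FLNA, ACTN1 and SRF itself), and all 10 were found in both deposited tables, which list 16982 genes in all and share 15187. SAS is a human cell line from a squamous carcinoma of the tongue. The 3 knockdown libraries (shCCT2 1, 2 and 3) came from SAS cells with short hairpin RNA directed at CCT2, the gene of one subunit of TRiC, the chaperonin of the cytosol that folds actin and tubulin. The 2 control libraries (shCtrl 1 and 2) came from SAS cells with a control hairpin. Here set A is the table with shCCT2 1, shCCT2 2 and shCtrl 1, and set B is the table with shCCT2 3 and shCtrl 2. The labels do not say whether the shCCT2 libraries carried the same hairpin sequence or whether cultures were separate. The p-values therefore measure only how far these 5 libraries spread, which may be technical variation.

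Serum response factor is a transcription factor that binds the CArG box, a short AT-rich element, in the control regions of its targets. Its MRTF coactivators are held in the cytoplasm by monomeric actin and enter the nucleus when actin polymerises, so that genes of the actin cytoskeleton follow the state of actin itself. A second class of partners, the ternary complex factors of the ELK family, links SRF to ERK signalling and immediate early genes. In carcinoma tissue, ACTA2 and TAGLN are best known as genes of smooth muscle and of myofibroblasts in the stroma, whereas vinculin, filamin and alpha-actinin serve adhesion and shape in nearly every cell.

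The libraries held between 16913585 and 18156592 counts. CCT2 stood at 296.1, 272.4 and 260.2 CPM (the count scaled to library size and TMM factor) in shCCT2 1, 2 and 3, against 629.9 CPM in shCtrl 1 and 642.4 CPM in shCtrl 2. It was thus lower in each library labelled as knockdown, at log2 changes of -1.09, -1.21 and -1.30. Its adjusted p was 0.542 by edgeR's quasi-likelihood test and 3.81e-05 by DESeq2's Wald test. The share of reads in the last 20% of transcript positions was 14.3%, 15.8% and 14.6% in shCCT2 1, 2 and 3, against 17.3% and 15.8% in shCtrl 1 and 2, and its part in the results was not tested. Markers of squamous and other epithelium were present in every library. They summed to 6964 to 12400 CPM in the knockdown libraries and 2901 to 12323 CPM in the controls. Most of each sum came from KRT8 and KRT18, which stood at 703.1 and 939.8 CPM in shCtrl 2. The lowest sum was that of shCtrl 2. The gene of the epithelial cadherin, CDH1, stood at 24.9 CPM in shCCT2 3, against 10.6 CPM in shCtrl 2, and at 185.4 and 212.5 CPM in shCCT2 1 and 2, against 251.5 CPM in shCtrl 1. The sets therefore differed in level also where CCT2 was not knocked down, and the labels give no reason for this.

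The CArG box was searched in the RefSeq promoter windows of GRCh38.p14, which run from 250 bases before to 50 bases after an annotated start. The box is CC, 6 bases of A or T, then GG, which reads the same way on both strands. Of the 10 genes, 8 had a window, and TAGLN and MYL9 had none. A box was found for 3 of the 8 genes (37.5%), SRF, FLNA and ACTN1, against 1.6% of all genes with a window. With 1 of the 6 middle bases free, a looser form chosen after seeing the data, ACTA2 and CALD1 also had a match, which made 5 of 8 genes (62.5%) against 9.88% of all genes. The 8 genes have more windows each than the average gene, and counted by window the shares were 3 of 17 (17.6%) against 1.29% for the strict form and 5 of 17 (29.4%) against 8.13% for the looser one. The 10 genes were chosen as known targets of SRF, which binds this box, so shares above those of all genes are no independent finding. The 3 windows below are shown because they hold the boxes of SRF itself, of ACTA2, which had the lowest fitted change, and of FLNA, with the boxes in capitals. Those of SRF begin 30 and 10 bases before the start, those of ACTA2, both of the looser form, 121 and 71 bases before it, and that of FLNA 94 bases before it.
SRF promoter window, chr6:43171019-43171318, plus strand: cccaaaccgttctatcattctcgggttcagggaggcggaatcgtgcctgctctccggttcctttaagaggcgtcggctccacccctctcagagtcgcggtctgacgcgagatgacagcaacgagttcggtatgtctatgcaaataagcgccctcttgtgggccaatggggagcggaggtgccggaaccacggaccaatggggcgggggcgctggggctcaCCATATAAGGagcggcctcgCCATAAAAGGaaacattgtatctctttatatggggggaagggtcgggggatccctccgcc
ACTA2 promoter window, chr10:88952724-88953023, minus strand: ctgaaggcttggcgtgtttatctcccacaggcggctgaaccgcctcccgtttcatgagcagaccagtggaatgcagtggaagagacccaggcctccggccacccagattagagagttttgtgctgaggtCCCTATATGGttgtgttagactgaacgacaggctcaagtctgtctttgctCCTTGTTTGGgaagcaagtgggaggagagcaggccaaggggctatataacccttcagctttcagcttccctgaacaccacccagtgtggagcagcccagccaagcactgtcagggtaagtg
FLNA promoter window, chrX:154374585-154374884, minus strand: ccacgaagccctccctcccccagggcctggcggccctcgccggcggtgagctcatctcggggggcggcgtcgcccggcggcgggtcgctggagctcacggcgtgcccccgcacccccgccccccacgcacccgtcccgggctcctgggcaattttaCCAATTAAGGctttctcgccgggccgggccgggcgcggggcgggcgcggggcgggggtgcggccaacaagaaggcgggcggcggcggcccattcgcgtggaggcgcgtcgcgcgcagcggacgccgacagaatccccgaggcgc
A match is a description of the letters and not evidence that the factor binds there, and which start the SAS cells use was not measured.

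None of the 10 genes passed edgeR's quasi-likelihood test with Benjamini-Hochberg adjustment (adjusted p under 0.05) across the 13123 tested genes, and neither did any other gene (0%, lowest adjusted p = 0.542). All 10 genes passed the filter on low counts, TAGLN through the set B libraries alone. At an unadjusted p under 0.05, 1 of the 10 was lower (ACTA2) and 0 were higher, beside 4.57% of all tested genes lower, 2.83% higher and 7.41% in either direction. DESeq2's Wald test called 17 genes (0.13%) and none of the 10, of which 2 had an unadjusted p under 0.05 (ACTA2 and MYL9), beside 10.1% of all genes. The directions below are therefore values that did not pass. In bulk RNA, fewer cells of a type and less RNA per cell cannot be told apart. Log2 changes are knockdown minus the control of the same set, and the fitted change with its SE combines the 3 knockdown and 2 control libraries with the set as a term.

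**Figure D1:**
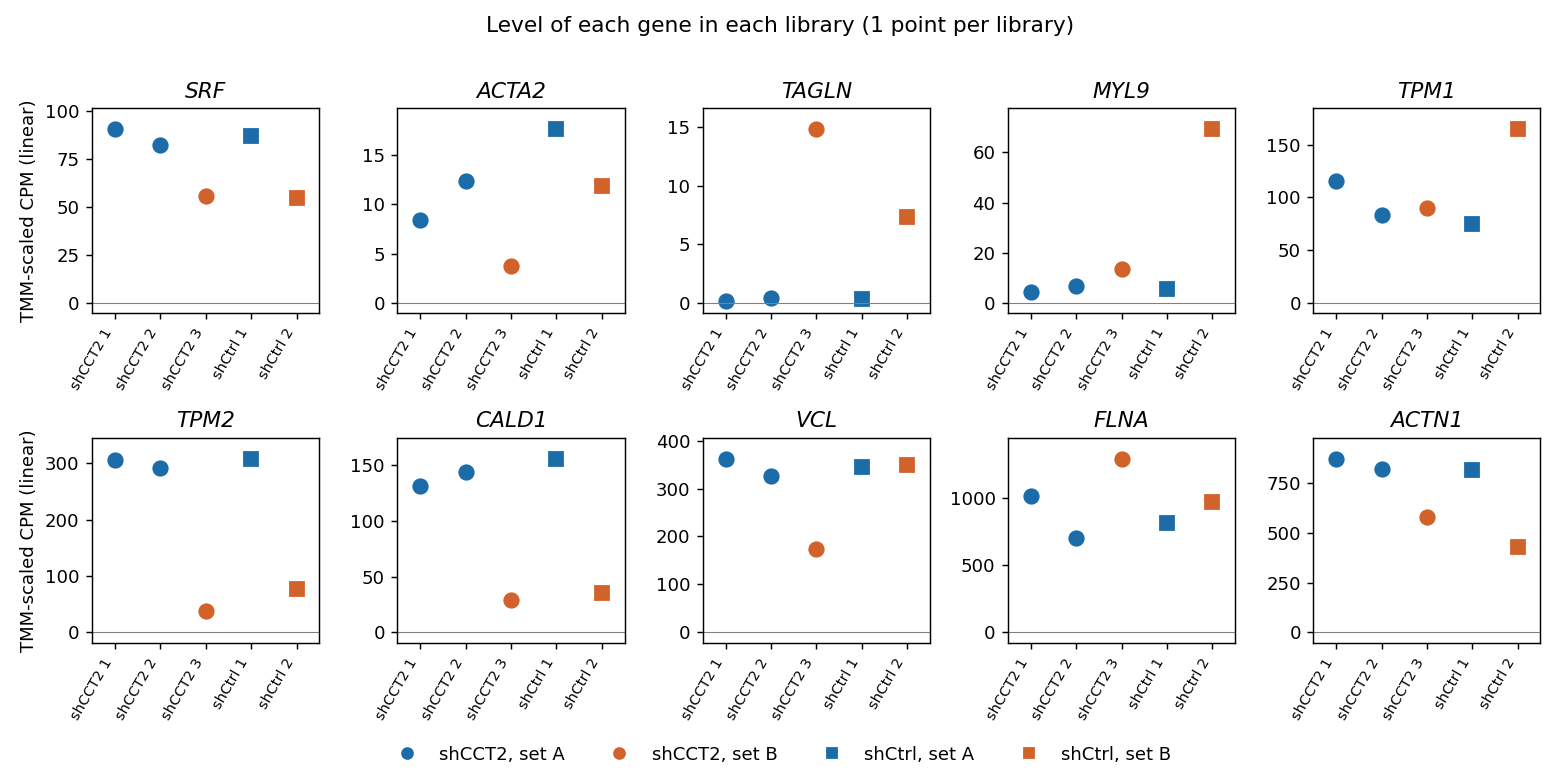
TMM-scaled CPM of each gene on a linear axis (y) in each library (x), with circles for shCCT2, squares for shCtrl, blue for set A and orange for set B. The set A libraries of TPM2 and CALD1 all lie above those of set B and those of MYL9 and TAGLN all lie below, while ACTA2 is lower in each knockdown library than in the control of its own set.

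SRF, the transcription factor itself, was nearly level within each set. Its values were 90.7, 82.7 and 56.1 CPM in shCCT2 1, 2 and 3, against 86.9 CPM in shCtrl 1 and 54.6 CPM in shCtrl 2. The log2 changes were 0.06, -0.07 and 0.04, and the fitted change was 0.01 ± 0.17 (SE; edgeR, adjusted p = 0.973). Its sign turned when scaling was left out (-0.051) or when shCCT2 1, shCCT2 3 or shCtrl 2 was left out (-0.013, -0.0032 and -0.0040). The 3 set A libraries all lay above both set B libraries, whichever hairpin they carried.

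ACTA2, which encodes smooth muscle alpha-actin, the actin of contractile bundles, had the lowest fitted change of the 10. It stood at 8.42, 12.4 and 3.77 CPM in shCCT2 1, 2 and 3, against 17.6 CPM in shCtrl 1 and 11.9 CPM in shCtrl 2. Each knockdown library was below the control of its own set, although shCCT2 2 lay above shCtrl 2, so the groups overlapped. The log2 changes were -1.02, -0.49 and -1.54, and the fitted change of -1.14 ± 0.36 (SE) lay at percentile 4.81 of all tested genes. The unadjusted p of edgeR's test was 0.0173 and the adjusted p was 0.542, with a span of 0.106 to 0.99996 under the alternatives. The counts behind it were 143, 208 and 69 in the knockdown libraries and 306 and 224 in the controls. ACTA2 shares most of its coding sequence with other actin genes, so reads from relatives can enter its count. Of those relatives, ACTG2 had at most 1 count in each set A library and ACTC1 at most 1 in each set B library, while ACTB and ACTG1, also relatives, were expressed in every library. The box matches in its promoter are those printed above.

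By a rule on likeness over the 5 libraries (Euclidean distance of mean-centred log2 CPM among 10714 other genes with at least 5 CPM), the nearest genes to ACTA2 were C1QTNF1, DBNDD1 and PTP4A3. C1QTNF1, a secreted C1q and TNF-related protein gene, stood at 5.18, 6.15 and 2.24 CPM in shCCT2 1, 2 and 3, against 9.98 CPM in shCtrl 1 and 6.63 CPM in shCtrl 2, at a distance of 0.26. DBNDD1 and PTP4A3 lay at 0.28 and 0.29. With 5 libraries, many genes can come this close, and the likeness is given as a description.

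MYL9, which encodes the regulatory light chain of smooth muscle and non-muscle myosin, differed mainly in set B. It stood at 4.48 and 6.81 CPM in shCCT2 1 and 2, against 5.54 CPM in shCtrl 1, and at 13.4 CPM in shCCT2 3, against 69.3 CPM in shCtrl 2. In set A the knockdown libraries lay on both sides of the control, at log2 changes of -0.28 and 0.28, while in set B the change was -2.33, with a counting interval of -2.58 to -2.18 (from an exact binomial interval of 95%, which covers counting error only). The fitted change of -1.11 ± 0.60 (SE; edgeR, adjusted p = 0.542) rested on set B, and it was 0.026 without shCtrl 2, 0.027 without shCCT2 3 and -2.34 without shCtrl 1. The level in shCCT2 3 was nevertheless above those of the 3 set A libraries.

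TAGLN, which encodes the actin-bundling protein transgelin (SM22 alpha), was near 0 in set A. It had 3.39, 6.82 and 272.0 counts in shCCT2 1, 2 and 3, against 5.52 counts in shCtrl 1 and 139.5 counts in shCtrl 2. That is 0.18, 0.42 and 14.8 CPM in shCCT2 1, 2 and 3, against 0.35 CPM in shCtrl 1 and 7.37 CPM in shCtrl 2. In set B it was higher in the knockdown library, by 0.96 on the log2 scale with 0.5 CPM added, where MYL9 was lower. The set A log2 changes of -0.32 and 0.12 rest on so few counts that their counting intervals ran from -3.60 to 1.26 and from -1.52 to 2.12. The fitted change was 0.55 ± 0.54 (SE; edgeR, adjusted p = 0.663) and became -0.22 without shCtrl 2. Its counts were not whole in any library, as can happen where estimated counts split reads between genes, so its level is uncertain.

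The tropomyosin genes encode the coiled-coil proteins that lie along actin filaments, and the values of TPM1 and TPM2 were both below control in set B. TPM1 stood at 115.8, 83.4 and 89.5 CPM in shCCT2 1, 2 and 3, against 74.6 CPM in shCtrl 1 and 164.7 CPM in shCtrl 2. It was above its control in both set A knockdown libraries (log2 changes 0.63 and 0.16) and below it in set B (-0.88), so the fitted change of -0.16 ± 0.35 (SE; edgeR, adjusted p = 0.852) averages opposite directions. Without shCCT2 3 or shCtrl 2, each of which leaves set A to give the change, it was 0.42, and without shCtrl 1 it was -0.85. TPM2 stood at 305.6, 291.3 and 37.9 CPM in shCCT2 1, 2 and 3, against 307.9 CPM in shCtrl 1 and 76.4 CPM in shCtrl 2. Its log2 changes were -0.01, -0.08 and -1.002, with a fitted change of -0.46 ± 0.26 (SE; edgeR, adjusted p = 0.542). Without shCCT2 3 it was -0.045, without shCtrl 2 it was -0.046, and without shCtrl 1 it was -0.98. TPM1 had counts that were not whole in 4 of the 5 libraries, so its level too is uncertain.

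CALD1, which encodes caldesmon, an actin-binding inhibitor of myosin ATPase activity, was slightly below control throughout and differed far more between sets. It stood at 131.4, 144.0 and 29.4 CPM in shCCT2 1, 2 and 3, against 155.8 CPM in shCtrl 1 and 35.0 CPM in shCtrl 2. Each knockdown library was below its own control, by log2 changes of -0.24, -0.11 and -0.25, and the fitted change was -0.21 ± 0.17 (SE; edgeR, adjusted p = 0.610). Together with ACTA2 and TPM2 it made 3 of the 10 genes that were lower in all 3 knockdown libraries, beside 21.4% of all tested genes. In this count shCCT2 1 and 2 share shCtrl 1 as their control, so their changes are not independent.

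The last 3 genes tie actin filaments to adhesions and to each other. VCL encodes vinculin, which links integrin and cadherin adhesions to actin. It stood at 362.1, 325.5 and 173.6 CPM in shCCT2 1, 2 and 3, against 345.7 CPM in shCtrl 1 and 348.4 CPM in shCtrl 2. The 4 libraries other than shCCT2 3 lay close together, and shCCT2 3 alone was low (log2 changes 0.07, -0.09 and -1.003; fitted -0.45 ± 0.27, SE; edgeR, adjusted p = 0.548). Without shCCT2 3 or shCtrl 2 the fitted change was -0.0080 or -0.0088, and without shCtrl 1 it was -0.98.

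FLNA encodes filamin A, which crosslinks actin filaments into networks. It stood at 1014, 704.6 and 1294 CPM in shCCT2 1, 2 and 3, against 814.9 CPM in shCtrl 1 and 974.0 CPM in shCtrl 2. The set A knockdown libraries lay on either side of their control, and log2 changes of 0.32, -0.21 and 0.41 were fitted as 0.22 ± 0.24 (SE; edgeR, adjusted p = 0.687). Leaving out 1 library moved this to 0.10 (shCCT2 1), 0.37 (shCCT2 2), 0.077 (shCCT2 3), 0.44 (shCtrl 1) or 0.076 (shCtrl 2). ACTN1 encodes alpha-actinin 1, which bundles actin at adhesions and stress fibres. It stood at 873.0, 820.3 and 580.4 CPM in shCCT2 1, 2 and 3, against 814.8 CPM in shCtrl 1 and 427.2 CPM in shCtrl 2. ACTN1 was the 1 gene of the 10 above its own control in all 3 knockdown libraries, beside 20.2% of all tested genes, its log2 changes being 0.10, 0.01 and 0.44 and the fitted one 0.22 ± 0.20 (SE; edgeR, adjusted p = 0.633). It was 0.055 without shCCT2 3 or shCtrl 2, and 0.47 without shCtrl 1.

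**Figure D2:**
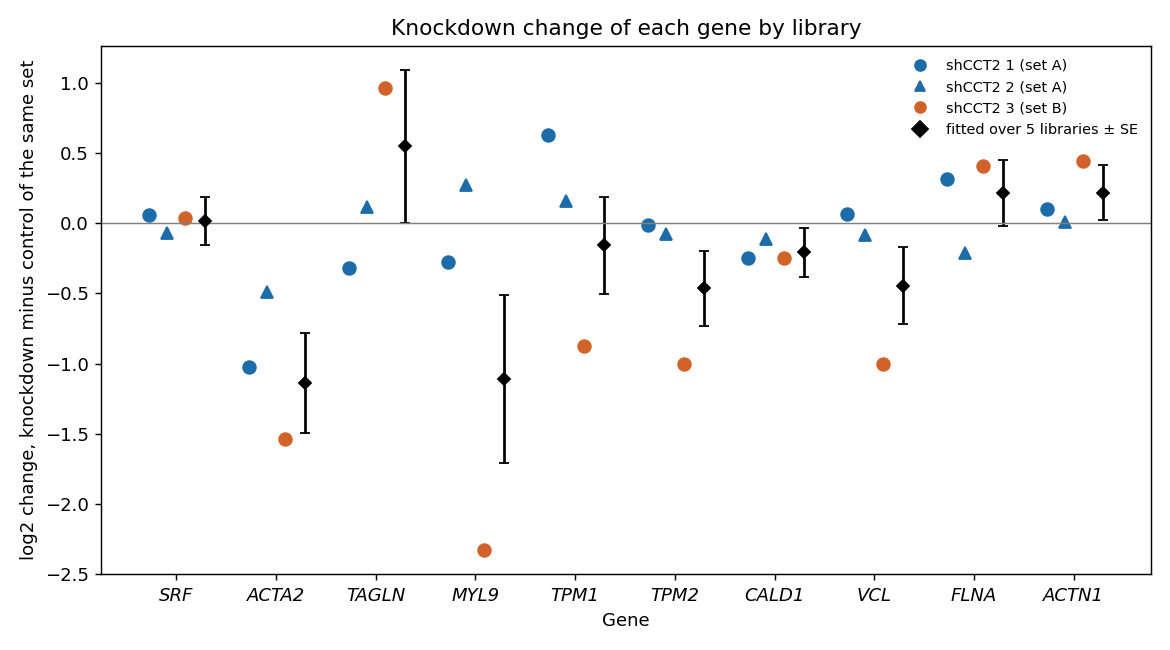
Log2 change of each gene (x) in each knockdown library against the control of its own set (y), with circles and triangles for the single libraries and black diamonds for the change fitted over 5 libraries with its SE. The set B points of MYL9, ACTA2, TPM2 and VCL lie at -1.002 or lower, and the set A points of MYL9, TPM2 and VCL lie between -0.28 and 0.28.

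Counted by library, 5 of the 10 genes were lower in shCCT2 1, 6 in shCCT2 2 and 6 in shCCT2 3, beside 50.1%, 50.1% and 51.2% of all tested genes. The median log2 changes were 0.03, -0.08 and -0.56 in shCCT2 1, 2 and 3, beside -0.001, -0.0003 and -0.02 for all tested genes. A change of at least 2-fold was seen for 1 gene in shCCT2 1 (ACTA2; 3.95% of all genes), 0 in shCCT2 2 (1.08%) and 4 in shCCT2 3 (ACTA2, MYL9, TPM2 and VCL, all lower; 22.2% of all genes in either direction and 13.8% lower). TPM2 and VCL sat right at the 2-fold mark. The fitted median was -0.18, beside -0.02 for all genes, with 6 genes lower and 4 higher, beside 51.5% lower. It was -0.54 without shCtrl 1, when only set B has both hairpins, -0.0032 without shCCT2 3, -0.0064 without shCtrl 2 and -0.27 without shCCT2 1. Without the set as a term its sign turned, to 0.10, with 4 genes lower, and with the replicate number as a block it was -0.046. Of the 10 genes, 1 (TPM1) had opposite signs in set B and in both set A libraries, beside 22.6% of all tested genes. The knockdown and control libraries overlapped for each of the 10 genes, whereas they did not overlap for 16.2% of all tested genes.

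Whether a change differed between the sets was tested as an interaction of set and hairpin. By edgeR's quasi-likelihood test, 0 of the 10 genes and 0 of all genes (0%) passed after adjustment. At an unadjusted p under 0.05 the test gave 4 of the 10, MYL9, TPM1, TPM2 and VCL, beside 17.2% of all tested genes. For MYL9 the set B change minus the set A change was -2.40 ± 0.50 on the log2 scale (SE; edgeR, unadjusted p = 0.00335, adjusted p = 0.138). The differences were -1.30 ± 0.39 for TPM1, -0.97 ± 0.30 for TPM2 and -0.997 ± 0.31 for VCL (SE; edgeR, adjusted p = 0.211, 0.216 and 0.217). DESeq2's Wald test of the same interaction called 272 genes (2.07%), among them MYL9 (adjusted p = 0.0395) but not TPM1, TPM2 or VCL, and it gave TAGLN no adjusted p. The edgeR test has 1 residual degree of freedom, and set B holds 1 library of each kind, so a property of shCCT2 3 or shCtrl 2 cannot be told apart from the set.

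The same genes differed between the sets where CCT2 was not knocked down. Between the 2 control libraries, with no replicate and no test, MYL9 was higher in shCtrl 2 than in shCtrl 1 by 3.53 on the log2 scale, TAGLN by 3.22 and TPM1 by 1.14. CALD1 and TPM2 were lower in shCtrl 2, with differences of -2.14 and -2.004, and ACTN1, SRF and ACTA2 had differences of -0.93, -0.67 and -0.55. FLNA (0.26) and VCL (0.01) stood nearly level between the controls. The difference reached 4-fold for 4 of the 10 genes, beside 8.58% of all tested genes, and 2-fold for 5, beside 29.7%. TAGLN is in both counts, but it passed the filter on low counts through the set B libraries alone. A higher level in set B was thus a condition of its being tested. For TAGLN the 0.5 CPM added shrinks the difference, and its counting interval without it was 3.25 to 5.88. Between the knockdown libraries, shCCT2 3 minus the mean of shCCT2 1 and 2 gave 4.28 for TAGLN, 1.20 for MYL9, 0.61 for FLNA and -0.13 for TPM1. It gave -0.54 for ACTN1, -0.62 for SRF, -0.98 for VCL, -1.33 for ACTA2, -2.21 for CALD1 and -2.96 for TPM2. In these values, MYL9, TPM1, ACTN1 and SRF stood closer between the sets in the knockdown libraries than in the controls, and TAGLN, TPM2, VCL, ACTA2, FLNA and CALD1 stood further apart, SRF and CALD1 by very little.

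**Figure D3:**
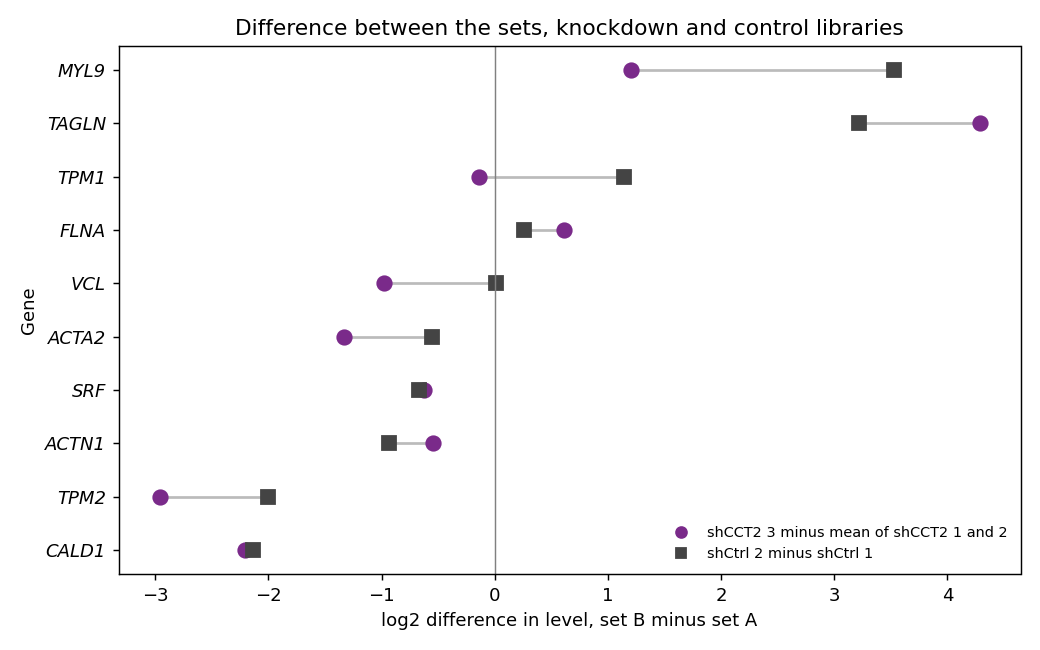
Log2 difference in level between set B and set A (x) for each gene (y), with circles for the knockdown libraries and squares for the controls. MYL9 and TAGLN lie to the right for both kinds of library and CALD1 and TPM2 to the left, and the grey line between the points is the amount by which the knockdown change differs between the sets.

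Divided by transcript length, the genes differed widely in level. The mean over the 5 libraries was 231.1 CPM per kilobase for ACTN1, 172.1 for TPM2, 116.0 for FLNA, 96.0 for TPM1, 51.9 for VCL, 37.2 for CALD1, 17.7 for SRF, 10.4 for MYL9, 8.02 for ACTA2 and 3.77 for TAGLN. Lengths are medians of the protein-coding transcripts in GENCODE release 29, and isoforms of TPM1, from 485 to 3957 bases, make its place uncertain. Neighbours in this order had overlapping ranges over the libraries, with the exception of TPM1 (67.8 to 149.7) and VCL (28.98 to 60.5). MYL9, ACTA2 and TAGLN thus had the 3 lowest means of the 10, and ACTN1, TPM2 and FLNA the 3 highest. This order of means did not hold in set B. TPM2 stood at 32.0 CPM per kilobase in shCCT2 3 and 64.5 in shCtrl 2, below TPM1 at 81.3 in shCCT2 3 and 149.7 in shCtrl 2. In shCtrl 2, TPM1 was the highest of the 10, and MYL9, at 36.0, lay above CALD1 at 13.1 and SRF at 13.0.

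Smooth muscle markers were near 0 and fibroblast markers low, while pericyte markers were not. Of 7 smooth muscle markers, 4 were in both tables and none passed the filter on low counts. Their summed level was 0.36 to 1.26 CPM in the knockdown libraries and 0.46 to 2.17 CPM in the controls, and SYNPO2, at 1.27 CPM in shCtrl 2, was the only one to reach 1 CPM. The smooth muscle calponin gene CNN1 was at 0 in shCCT2 2 and shCtrl 1, and MYOCD, the cofactor of SRF in muscle, was in neither table. The 3 fibroblast markers in both tables summed to 3.004 to 4.86 CPM in the knockdown libraries and 4.498 to 12.3 CPM in the controls, and both tested ones, COL1A1 and PDGFRB, were below control in all 3 knockdown libraries. Of the pericyte list, 5 genes were measured, at a sum of 52.9 to 168.2 CPM in the knockdown libraries and 102.1 to 151.9 CPM in the controls. In set B the log2 changes of these 5 were -3.09 for MCAM, -1.84 for NOTCH3, -1.18 for CSPG4, -0.03 for RGS5 and 0.97 for ABCC9. The CSPG4 change rested on 6 counts in shCCT2 3 against 26 in shCtrl 2, and the MCAM change on 18.96 against 238.04. In set A, CSPG4 stood at 45.7 and 50.3 CPM in shCCT2 1 and 2, against 53.6 CPM in shCtrl 1. In set B it stood at 0.33 CPM in shCCT2 3, against 1.38 CPM in shCtrl 2. RGS5 stood at 3.02 CPM or less in every library. Every library was labelled as SAS cells, and the levels of these genes do not show that pericytes were present. The part of the fibroblast and pericyte markers in the changes of the 10 genes was not tested. Endothelial markers summed to 1.31 to 3.46 CPM in the knockdown libraries and 4.38 to 7.48 CPM in the controls. Leukocyte markers summed to 43.8 to 105.4 CPM in the knockdown libraries and 60.8 to 112.2 CPM in the controls, nearly all of it from CD68, a lysosomal gene that epithelial lines also express.

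No partner of SRF passed the test. MRTFA, a coactivator, stood at 29.4, 34.3 and 62.2 CPM in shCCT2 1, 2 and 3, against 29.2 CPM in shCtrl 1 and 54.2 CPM in shCtrl 2, with a fitted change of 0.15 ± 0.19 (SE). Its relative MRTFB had a fitted change of -0.24 ± 0.21, and the ternary complex factors ELK1, ELK3 and ELK4 had -0.13 ± 0.22, 0.15 ± 0.19 and -0.02 ± 0.17. Of 11 listed partners and regulators, 9 were tested, and their fitted values were below 0 for 7 and above 0 for 2, with a median of -0.13. FOXK1, a forkhead transcription factor gene, had -0.30 ± 0.18 and was below its control in all 3 knockdown libraries (edgeR, adjusted p = 0.542).

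Upstream of the coactivators, genes of actin signalling were divided in direction. Of 26 tested, 14 had fitted values above 0 and 12 below, with a median of 0.02, and 0 passed. DIAPH1, a formin that nucleates actin filaments, stood at 496.1, 450.7 and 453.2 CPM in shCCT2 1, 2 and 3, against 404.8 CPM in shCtrl 1 and 183.6 CPM in shCtrl 2 (fitted 0.67 ± 0.28, SE). The small GTPase gene RHOB stood at 98.9 CPM in shCCT2 3 and 25.3 CPM in shCtrl 2, and was nearly level in set A (fitted 0.84 ± 0.43). The kinase gene ROCK2, whose product acts on myosin phosphatase, had 0.38 ± 0.19, and PPP1R12B, which encodes a targeting subunit of myosin phosphatase, had -0.89 ± 0.50. No value of these 4 passed edgeR's test (adjusted p = 0.542 each). In set B, 5 of the 26 differed from control by at least 2-fold, beside 22.2% of all tested genes. Of these, RHOB (log2 change 1.95) and DIAPH1 (1.30) were above control, and PPP1R12B (-1.66), DIAPH2 (-1.40) and LIMK1 (-1.19) were below it.

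Of 48 other actin-linked genes listed with the SRF programme, 41 were tested. Their fitted values were below 0 for 24 and above 0 for 17, with a median of -0.14, and edgeR called 0 after adjustment. At an unadjusted p under 0.05, 4 of the 41 were lower and 1 higher, beside 4.57% and 2.83% of all tested genes. PALLD, which encodes the actin-bundling scaffold palladin, stood at 37.1, 30.7 and 48.0 CPM in shCCT2 1, 2 and 3, against 51.8 CPM in shCtrl 1 and 131.7 CPM in shCtrl 2, and so lay below both controls in each knockdown library (fitted -0.98 ± 0.25, SE; edgeR, unadjusted p = 0.0072, adjusted p = 0.542). LPP, a focal adhesion LIM protein gene, showed -0.59 ± 0.20 and also did not overlap between groups. The groups did not overlap for 8 of the 41 genes, beside 16.2% of all tested genes. The keratin gene KRT17 showed -1.08 ± 0.39. TPM3, another tropomyosin gene, was above its control in each knockdown library (857.1, 756.7 and 683.0 CPM in shCCT2 1, 2 and 3, against 628.5 and 420.2 CPM in shCtrl 1 and 2; fitted 0.50 ± 0.20), in contrast to TPM2.

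The genes listed as immediate early, among them CCN1, CCN2 and THBS1, had no common direction. Of 15 tested, 7 had fitted values above 0 and 8 below, and 0 passed. The median log2 change was -0.92 in shCCT2 1, 0.16 in shCCT2 2 and -0.05 in shCCT2 3, so the 2 knockdown libraries of set A differed from each other. NR4A1, an orphan nuclear receptor gene, was lower in each knockdown library (5.13, 8.24 and 5.79 CPM in shCCT2 1, 2 and 3, against 14.2 and 20.3 CPM in shCtrl 1 and 2), with a fitted change of -1.40 ± 0.35 (SE; edgeR, unadjusted p = 0.00658, adjusted p = 0.542). FOSL1, an AP-1 subunit gene, stood at 346.9 CPM in shCCT2 3 and 86.4 CPM in shCtrl 2 (fitted 0.93 ± 0.40), FOSB had -1.21 ± 0.59, and the secreted glycoprotein gene THBS1 had log2 changes of 1.13, -0.81 and 3.16 (edgeR, adjusted p = 0.542 each).

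**Figure D4:**
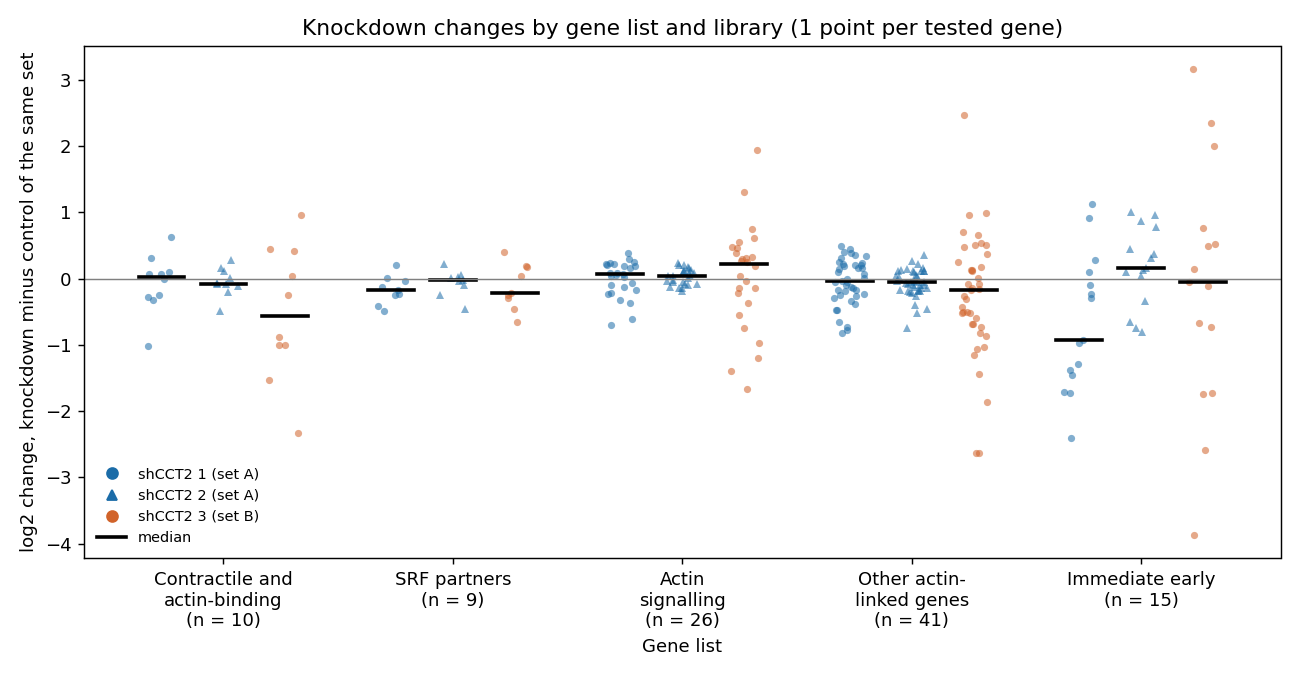
Log2 change of each tested gene against the control of its own set (y), by gene list and knockdown library (x), with black bars for the medians. The contractile and actin-binding genes have medians of 0.03, -0.08 and -0.56 in shCCT2 1, 2 and 3, while the immediate early genes have their lowest median, -0.92, in shCCT2 1.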

How the data were processed

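RNA-seq libraries of SAS cells, 3 with shRNA against CCT2 and 2 with control shRNA, were analysed. The authors deposited estimated counts of reads per gene, not normalized, in 2 tables. Poly(A) RNA was selected on oligo(dT) beads and primed with random hexamers, per the labels' protocols. Of tools and builds, the submitters' processing notes list STAR (1.5.1), HTSeq and mm10, a mouse build. The identifiers are those of human genes, and the human build used was not given in the sources used here. The deposited signal files, read numbers by relative transcript position per the file headers, gave the share of reads near the transcript end.

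Tables were joined on the gene identifier (15187 genes), counts were rounded, and genes were filtered with edgeR's filterByExpr by hairpin, which left 13123. Tests were run with the quasi-likelihood method of edgeR (4.0.16, under R 4.3.3), TMM scaling and the set as a term (2 residual degrees of freedom), with Benjamini-Hochberg adjustment over all tested genes. The SE is the fitted change over the square root of F. Changes of single libraries use TMM-scaled CPM with 0.5 added. Intervals of ratios cover counting error only. DESeq2 1.42.0 and the other alternatives are given in the closing section. Strand use in counting: not given in the sources used here.

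The members and lists were chosen with earlier results of these data known. Named genes are the 10 members, CCT2, the MRTF and ELK partners, up to 4 genes per list by the smallest p, markers of at least 1 CPM, and the 3 nearest genes to ACTA2. 1 gene that this rule names is not reported here. Promoter sequences are RefSeq's (GRCh38.p14). The fit was tested on simulated counts.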

Additional observations from a re-analysis of the deposited data

Results flagged for a closer look

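TPM1 was above its control in both set A knockdown libraries and below it in set B, where its log2 change was -0.88. The interaction of set and hairpin did not pass for it (adjusted p = 0.211 by edgeR and 0.126 by DESeq2). The same split of directions, every set A library one way and set B the other, was seen for 22.6% of all tested genes.

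Of the SRF partners, ELK1 (-0.45 in set B), ELK3 (0.41 in set B) and ELK4 (0.045 in set B) also had the opposite sign in both set A libraries, with adjusted p-values of edgeR's interaction test of 0.405, 0.471 and 0.867.

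Among the markers of cell types, the squamous and epithelial genes CDH1 (1.20), TP63 (0.80), KRT5 (0.21) and KRT14 (0.16) were higher than the control in set B and lower in both set A libraries. Of the other 6 genes of that list, KRT6A and EPCAM were above control in all 3 knockdown libraries, KRT17 was below it in all 3, and KRT8, KRT18 and DSP were above it in set B and split within set A. The endothelial gene VWF (0.19) was above control in set B and below it in both set A libraries. The leukocyte gene PTPRC (-0.74) was below control in set B and above it in both set A libraries. None of CDH1, TP63, KRT5, KRT14, VWF and PTPRC passed edgeR's interaction test over all genes (adjusted p = 0.138, 0.216, 0.291, 0.486, 0.436 and 0.272). DESeq2's test of the interaction called CDH1 (adjusted p = 0.0189), did not call TP63, KRT5 or KRT14, and gave VWF and PTPRC no adjusted p. It called 4 of the 10 squamous and epithelial genes, beside 2.07% of all tested genes, where edgeR's test called 0. Besides CDH1, these were KRT6A, KRT8 and KRT18 (DESeq2, adjusted p = 7.89e-11, 0.0031 and 0.0272). PTPRC had 0.65, 6.51 and 0.05 CPM in shCCT2 1, 2 and 3, against 0.06 and 0.42 CPM in shCtrl 1 and 2.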

How the results depend on the processing

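No member passed the adjusted threshold under any of the 14 alternatives to the test over all genes. ACTA2 stayed below 0 (-1.63 to -0.50), VCL below 0 (-0.98 to -0.0074) and ACTN1 above 0 (0.055 to 0.52) in each of them. Over all genes, DESeq2's Wald test called 17 genes where edgeR called 0, and 272 where edgeR's interaction called 0. Leaving out single libraries gave 0 to 2 genes called (2 without shCCT2 2), 0 members called and a member median of -0.54 to -0.0032. Without the set term the member median was 0.10, the 1 alternative in which its sign turned. The fits that left out 1 library gave -0.22 to 1.04 for TAGLN, -0.85 to 0.42 for TPM1, -2.34 to 0.027 for MYL9 and -0.013 to 0.068 for SRF. Signs turned for TPM2 (0.14) and CALD1 (0.091) without the set term, and for SRF without scaling (-0.051) and with the stricter filter (-0.0027). With set A alone, TPM1 (0.42), MYL9 (0.028) and SRF (-0.0027) turned. Fits without shCCT2 3 or shCtrl 2, or with set A alone, take the change from set A by construction. The cause of the other turns was not tested. TAGLN failed the filter with set A alone and without shCCT2 3.

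With the replicate number as a block in place of the set, 0 genes were called (447 at an unadjusted p under 0.05, against 972), and TAGLN (-2.85), TPM2 (0.96), CALD1 (0.89) and FLNA (-0.076) changed sign. Number 2 joins shCCT2 2 of set A with shCtrl 2 of set B, while number 1 joins libraries of set A. The deviations of shCCT2 2 and shCtrl 2 from their group means correlated at -0.60. Libraries of the same set correlated at 0.60 to 0.73. With 2 controls, the deviations of shCtrl 1 mirror those of shCtrl 2, so -0.60 and 0.60 are the same value. The correlations therefore cannot decide whether libraries of the same number share more than the number.

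Few counts limit TAGLN in set A (at most 6.82 in a library), although the libraries of both sets had similar totals. Set B has 1 library of each kind, so changes there have no replicate.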

Other observations

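DESeq2's test of the interaction of set and hairpin called 4 of the 41 other actin-linked genes (FHL1, SYNPO, FERMT2 and FLNC) and 3 of the 15 immediate early genes (CCN2, CCN1 and FOSL1), beside 2.07% of all tested genes. These genes were picked by that test after their values were seen, and edgeR's test called none of them.

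Of these, 5 had lower values in the set B knockdown library than in its control. CCN2, a matricellular gene, stood at 29.2 CPM in shCCT2 3 and 433.5 CPM in shCtrl 2, and at 15.0 and 13.6 CPM in shCCT2 1 and 2, against 7.67 CPM in shCtrl 1 (adjusted p = 0.0932 by edgeR and 2.01e-21 by DESeq2). Its relative CCN1 stood at 134.0 CPM in shCCT2 3 and 810.8 CPM in shCtrl 2, and at 1494 and 1727 CPM in shCCT2 1 and 2, against 1389 CPM in shCtrl 1 (adjusted p = 0.096 by edgeR and 5.65e-11 by DESeq2). FHL1, a LIM-domain protein gene, stood at 61.4 CPM in shCCT2 3 and 383.0 CPM in shCtrl 2 (adjusted p = 0.125 by edgeR and 1.03e-06 by DESeq2). SYNPO, which encodes the actin-associated protein synaptopodin, stood at 3.82 CPM in shCCT2 3 and 26.4 CPM in shCtrl 2 (adjusted p = 0.138 by edgeR and 0.0115 by DESeq2). FERMT2, which encodes the integrin activator kindlin-2, stood at 47.6 CPM in shCCT2 3 and 106.6 CPM in shCtrl 2 (adjusted p = 0.137 by edgeR and 0.0488 by DESeq2).

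The other 2 had higher values in the set B knockdown library. FLNC, which encodes filamin C, stood at 152.3 CPM in shCCT2 3 and 27.1 CPM in shCtrl 2, and at 76.6 and 40.6 CPM in shCCT2 1 and 2, against 58.2 CPM in shCtrl 1 (adjusted p = 0.158 by edgeR and 0.00383 by DESeq2). FOSL1, described above, had adjusted p = 0.125 by edgeR and 0.00113 by DESeq2.

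EGR1, an immediate early transcription factor gene, stood at 69.0 and 745.2 CPM in shCCT2 1 and 2, against 369.3 CPM in shCtrl 1, and at 136.6 CPM in shCCT2 3, against 26.4 CPM in shCtrl 2. FOS stood at 2.71 and 18.7 CPM in shCCT2 1 and 2, against 10.03 CPM in shCtrl 1. For these 2 genes, picked after their values were seen, the knockdown libraries of set A lay on opposite sides of their control.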
